A study of Drosophila melanogaster with 6 samples.

Results

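Integrins are the receptors that hold cells to the extracellular matrix. Each is a pair of 1 alpha and 1 beta chain that spans the membrane, binds matrix proteins outside and is tied to actin through linker proteins inside. In the fly embryo they are best known for anchoring muscles to tendon cells, for the migration of the gut and salivary gland, and for the joining of epidermis and amnioserosa at dorsal closure. The 7 integrin subunit genes of Drosophila melanogaster are 5 alpha genes, mew, if, scb, ItgaPS4 and ItgaPS5, and 2 beta genes, mys and Itgbn. They were chosen by gene symbol in the platform annotation, as a family, after the alpha gene scb had been picked on its rise in these same arrays. The difference between genotypes is therefore given for the 7 genes as a description and supports nothing further. They were measured by 9 probe sets, of 18769 probe sets other than array controls, and make up 7 of 11982 genes named by a probe set of their own.

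The arrays compared CrebA null mutant embryos (3 arrays) with wild type embryos (3 arrays). CrebA encodes a bZIP transcription factor, and the series title concerns its control of secretory pathway genes. Mutants were picked on a COPAS biosorter, which sorts whole embryos, by their lack of a GFP-marked balancer chromosome, and wild type embryos were passed through the same instrument. Collections lasted 8 h with 11 h of ageing, and the labels give stages 11 to 15 in one field and 11 to 17 in another. No CrebA allele is named in the labels, the level of CrebA was not analysed here, and nothing says whether replicates came from separate collections, so the spread between arrays may be technical.

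Each value is an RMA estimate in log2 units, a probe set's brightness after the authors' background correction and normalization, so that a difference of 1 is a doubling. Levels of different probe sets are not comparable as amounts of RNA. The level of each integrin probe set is set only against itself and against 17 Tag controls, probe sets with sequences foreign to the fly. For other genes, level also served to pick the brightest probe set or genes, and marker levels were averaged on each array. The highest Tag control lay between 4.71 and 4.93 on the mutant arrays and between 4.81 and 5.28 on the wild type arrays. Replicate 2 differed most from the rest in either genotype. Within a genotype, replicates 1 and 3 differed by an SD of 0.226 to 0.251 over probe sets, and pairs with replicate 2 by 0.390 to 0.524. RNA came from whole embryos, so more cells of a type and more RNA per cell cannot be told apart.

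Of the 9 integrin probe sets, 7 lay above the highest Tag control on every array, and these covered 5 genes. The alpha genes scb and if were higher in mutants than in wild type, scb by 6.81-fold and if by 1.83-fold. The other alpha gene above the controls, mew, and both beta genes, mys and Itgbn, had overlapping values in the 2 genotypes. ItgaPS4 and ItgaPS5 lay below the highest Tag control on all 6 arrays, so no fold is given for them. A probe set was called changed at a Benjamini-Hochberg adjusted p under 0.05 in a limma fit over all probe sets. By that rule 2 of the 9 probe sets rose and 0 fell, where 1.42% of all probe sets rose and 0.911% fell. At an unadjusted p under 0.05 in the same limma fit, 3 rose and 0 fell. The share of all probe sets or genes at that unadjusted threshold was not counted, so nothing is read from such counts here or below. The genotypes did not overlap in 3 of the 9, against 18.9% of all probe sets. Since the family was proposed with the rise of scb known, nothing is read from these shares.

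**Figure D1:**
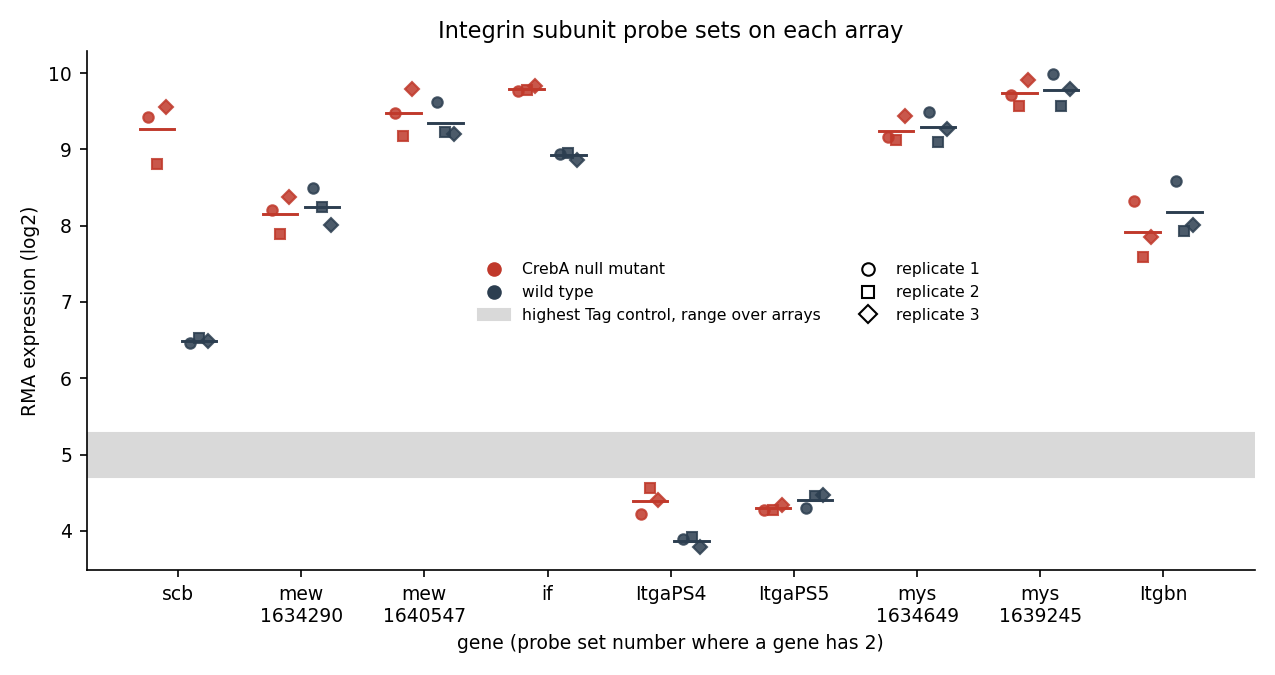
Log2 expression of the 9 integrin probe sets on each array, mutant points left of wild type points, with a line at each genotype mean and marker shapes for the replicate number; the grey band spans the highest Tag control of the 6 arrays. The scb and if points of the genotypes are apart, those of mew, mys and Itgbn overlap, and ItgaPS4 and ItgaPS5 lie under the band.

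The gene scb (scab, also Volado) encodes the alpha PS3 chain, which pairs with either beta chain and is known from dorsal closure, tracheal and salivary gland shape and, with the Itgbn chain, the uptake of dead cells by phagocytes. Its probe set gave 9.42, 8.80 and 9.56 on mutant arrays 1, 2 and 3, against 6.46, 6.53 and 6.49 on wild type arrays 1, 2 and 3. Every mutant array was above every wild type array, and all 6 values lay above the Tag controls. The mean was 9.26 ± 0.40 in mutants and 6.49 ± 0.04 in wild type (SD, n = 3 each), a log2 difference of 2.77 (SE 0.20). The spread was almost wholly among mutants, where array 2 was the lowest. Without both replicate 2 arrays the difference was 3.02 (SE 0.10). Taken between arrays of the same replicate number, it was 2.96, 2.27 and 3.07 for numbers 1, 2 and 3. Only 10 of all probe sets had a larger rise, which placed scb 11th.

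The gene if (inflated) encodes the alpha PS2 chain, which pairs with the mys chain. It sits on the muscle side of muscle attachments and binds matrix proteins such as Tiggrin. Its probe set gave 9.77, 9.77 and 9.84 on mutant arrays 1, 2 and 3, against 8.95, 8.96 and 8.86 on wild type arrays 1, 2 and 3. The genotypes were apart and each was tight. The mean was 9.79 ± 0.04 in mutants and 8.92 ± 0.05 in wild type (SD, n = 3 each), a log2 difference of 0.87 (SE 0.07). Differences between arrays of the same number were 0.82, 0.82 and 0.97, and the replicate 2 arrays did not stand apart for this gene. The call for if was lost when mutant array 1, mutant array 3 or wild type array 1 was left out, with differences of 0.88, 0.85 and 0.88, and was kept without any other single array.

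The gene mew (multiple edematous wings) encodes the alpha PS1 chain, a laminin receptor of the epidermis, tendon cells and gut that also pairs with the mys chain. Of its 2 probe sets, 1640547_at gave 9.48, 9.17 and 9.80 on mutant arrays 1, 2 and 3, against 9.62, 9.23 and 9.20 on wild type arrays 1, 2 and 3. The other, 1634290_a_at, gave 8.20, 7.89 and 8.37 on mutant arrays and 8.49, 8.24 and 8.01 on wild type arrays. In both probe sets the genotypes overlapped. The log2 differences were 0.13 (95% interval -0.34 to 0.61) and -0.09 (-0.52 to 0.33), of opposite sign. Between arrays of the same number, both probe sets were lower in mutants for numbers 1 and 2 and higher for number 3, by 0.60 for 1640547_at and by 0.36 for 1634290_a_at.

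The gene mys (myospheroid) encodes beta PS, the main beta chain, without which muscles detach and round up. Its probe set 1634649_at gave 9.16, 9.12 and 9.44 on mutant arrays 1, 2 and 3, against 9.49, 9.10 and 9.27 on wild type arrays 1, 2 and 3. The second, 1639245_x_at, carries a suffix that Affymetrix gives to probe sets that can also match other transcripts. It gave 9.71, 9.58 and 9.91 on mutant arrays and 9.98, 9.57 and 9.79 on wild type arrays. The genotypes overlapped in both, and replicate 2 was the lowest array of its genotype in both. The log2 difference was -0.05 in each, with 95% intervals of -0.39 to 0.30. For these arrays the intervals leave out a change as large as that of scb or of if. The spread that the intervals rest on may be technical.

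The gene Itgbn encodes beta nu, a diverged beta chain known from the midgut and from phagocytic cells. Its probe set gave 8.32, 7.59 and 7.85 on mutant arrays 1, 2 and 3, against 8.59, 7.93 and 8.003 on wild type arrays 1, 2 and 3. Replicate 1 was the highest array in both genotypes, and the genotypes overlapped. The mean was 7.92 ± 0.37 in mutants and 8.18 ± 0.36 in wild type (SD, n = 3 each), a log2 difference of -0.25 (95% interval -0.87 to 0.36). Between arrays of the same number the differences were -0.27, -0.34 and -0.15, all lower in mutants. With the replicate number as a block the SE was 0.08 in place of 0.25, and Itgbn was still not called.

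**Figure D2:**
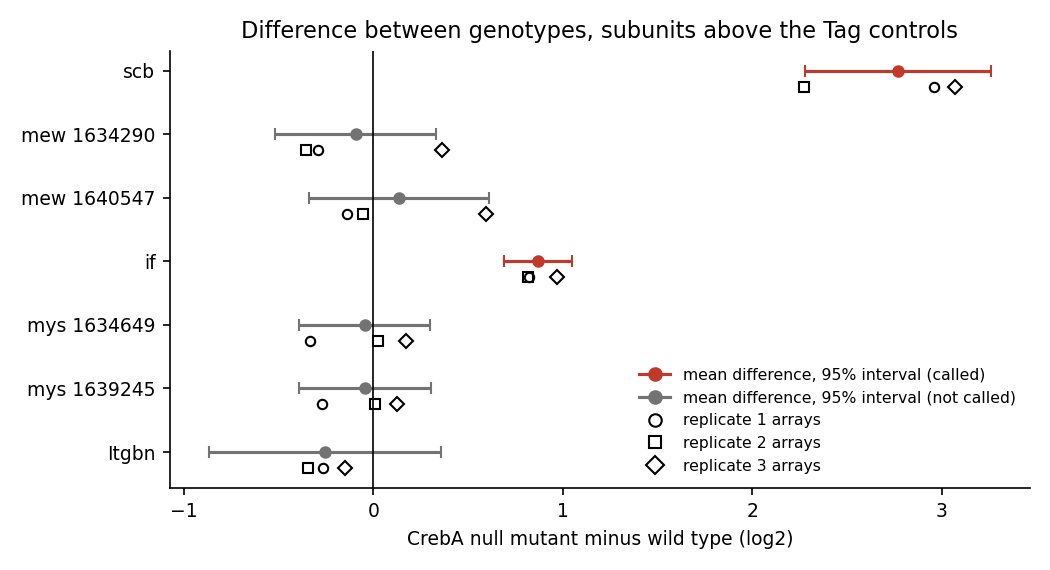
Log2 difference, CrebA null mutant minus wild type, for the 7 probe sets above the Tag controls: filled points with bars are the limma estimate with its 95% interval, and open markers beneath are differences between arrays of the same replicate number. The scb and if intervals lie right of 0 and the other 5 span 0.

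ItgaPS4 and ItgaPS5 encode alpha chains close in sequence to that of scb. ItgaPS4 gave 4.22, 4.56 and 4.40 on mutant arrays 1, 2 and 3, against 3.89, 3.92 and 3.79 on wild type arrays 1, 2 and 3. ItgaPS5 gave 4.27, 4.28 and 4.33 on mutant arrays, against 4.30, 4.45 and 4.46 on wild type arrays. The genotypes were apart for ItgaPS4, the mutants higher, and overlapped for ItgaPS5. ItgaPS4 passed the test only in some fits, among them the one with the replicate block. That fit called 3 of the 9 probe sets, ItgaPS4, scb and if. Over all probe sets it called 1788 risen and 1342 fallen, against 267 and 171 in the main fit. Nothing is therefore read from the call of ItgaPS4 there. All values of ItgaPS4 and ItgaPS5 lie under the highest Tag control of their array, so neither gene rose above the brightest foreign sequence. The median Tag control was 4.12, 4.29 and 4.03 on mutant arrays 1, 2 and 3, and 4.08, 4.29 and 4.07 on wild type arrays. ItgaPS4 lay above that median on the mutant arrays and below it on the wild type arrays. ItgaPS5 lay above it on every array except mutant array 2.

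ItgaPS4 is the next gene to scb in the RefSeq gene table (assembly Release 6), while ItgaPS5 lies far off on the same chromosome arm and the other 4 members on other chromosome arms. Of the 3 genes on each side of scb in that table, 4 were measured, and none was called in the main limma fit. ItgaPS4, with genotypes apart at levels under the highest Tag control, had a limma adjusted p of 0.0756 there. It was called in some other fits. The hexokinase gene Hex-C and the follistatin gene Fs, on one side, had log2 differences of -0.14 (SE 0.10, adjusted p 0.657) and -0.11 (SE 0.12, adjusted p 0.802). The cation channel gene Trpm, on the other side beyond ItgaPS4, had a difference of 0.09 (SE 0.15, adjusted p 0.897). Hex-C and Fs were close to the Tag controls, Hex-C above them on 5 of 6 arrays.

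The genes most like scb in profile were sought over all genes that have more than a CG or CR number for a name. The 5 genes with the highest Pearson correlation over the 6 arrays were Wbp2 (0.997), COX4 (0.996), Act79B (0.993), Cat (0.990) and Cpr64Ac (0.989). The 6 arrays fall into 2 genotypes, so these coefficients mostly reflect the gap between genotypes and the lower value of mutant array 2, and they carry no test. Wbp2 averaged 9.44 ± 0.11 in mutants and 8.75 ± 0.02 in wild type, and the catalase gene Cat 9.84 ± 0.10 in mutants and 9.31 ± 0.05 in wild type (SD, n = 3 each). The muscle actin gene Act79B averaged 6.79 ± 0.20 in mutants and 5.95 ± 0.04 in wild type, and the cuticle protein gene Cpr64Ac 7.48 ± 0.38 in mutants and 5.93 ± 0.12 in wild type. The cytochrome c oxidase gene COX4 had a smaller gap, with 12.58 ± 0.03 in mutants and 12.30 ± 0.02 in wild type. Among the members, if had a correlation of 0.987 with scb.

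**Figure D3:**
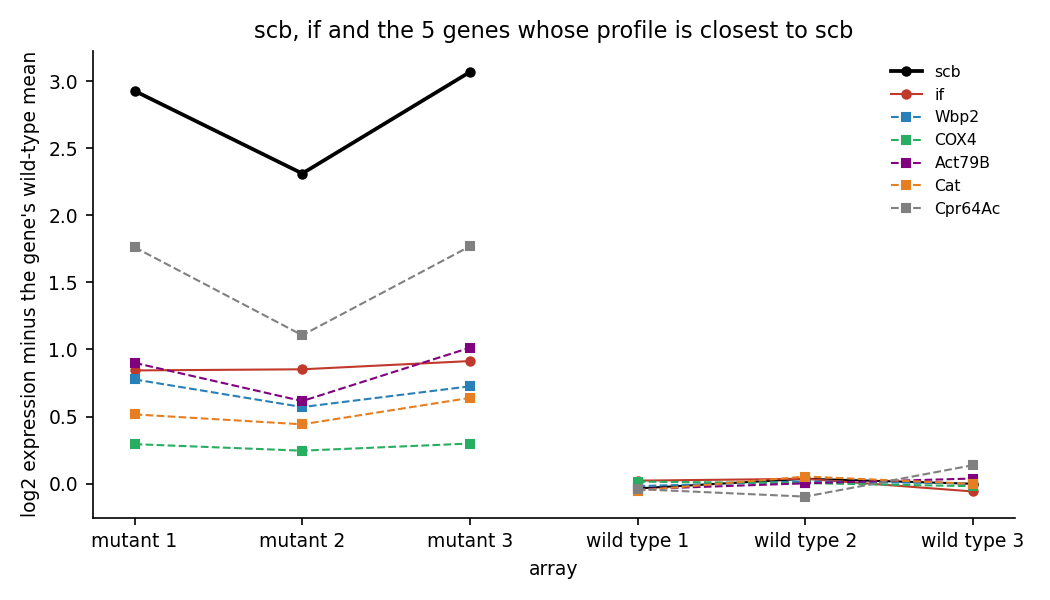
Log2 expression on each array minus the gene's wild type mean, for scb, if and the 5 genes with the highest correlation with scb; lines join the arrays of a genotype for legibility only, since replicates have no order. On each mutant array the point of scb lies above those of the other 6 genes, and the wild type points of all 7 lie near 0.

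Inside the genotypes, the subunits were compared by the deviation of each array from its genotype mean. The 2 mys probe sets moved together (Pearson r 0.974 over 6 arrays) and so did the 2 mew probe sets (0.940). Deviations of mew and mys correlated at 0.880 and 0.886 for mew 1640547_at with the 2 mys probe sets, and at 0.697 and 0.700 for mew 1634290_a_at. For scb against the 2 mew probe sets the coefficients were 0.702 and 0.664, and for if against them 0.594 and 0.738. For scb against mys they were 0.410 and 0.498, and for if against mys 0.358 and 0.229. For Itgbn they were 0.615 and 0.659 against mew, 0.456 and 0.599 against mys, 0.410 against scb and 0.046 against if. The points share their arrays. Replicate 2 was the lowest array for mys and Itgbn in both genotypes and for mew and scb in mutants. Coefficients of other genes were not set beside these.

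The other genes of integrin adhesion were taken from lists of linkers, matrix ligands and regulators, with 1 probe set per gene. Of 31 measured genes in these 3 lists, 1 rose, 0 fell and 30 were not called, with 2 and 1 at an unadjusted p under 0.05. Over all genes 1.9% rose and 1.02% fell. The median log2 difference of the 31 genes was 0.15, against -0.02 over all genes. With the replicate number as a block, 5 rose and 1 fell, where 12.6% of all genes rose and 9.21% fell.

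The linkers join the beta chain's tail to actin. Of 16 measured, 1 rose, Actn, which encodes the actin cross-linker alpha-actinin and is also a component of muscle Z-discs. It gave 11.97, 11.94 and 12.14 on mutant arrays 1, 2 and 3, against 11.50, 11.40 and 11.41 on wild type arrays 1, 2 and 3, a log2 difference of 0.58 (SE 0.09, limma adjusted p 0.0352). Actn was called in none of the fits that left out 1 array, nor with the filter on dim probe sets, where the count of risen linkers was 0. The talin gene rhea, whose product binds the beta tail directly, had a difference of -0.27 (SE 0.25, adjusted p 0.772). The kinase-like scaffold Ilk and its partners stck and parvin had differences of -0.05 (SE 0.11), 0.22 (SE 0.07) and 0.27 (SE 0.19), none of them called. With the block, where 12.6% of all genes rose and 9.21% fell, Pax, Zasp52 and CAP rose besides Actn, by 0.36, 0.41 and 0.48. In the same fit the tensin gene by fell by 0.46. These last 4 and rhea, Ilk, stck and parvin were named after their values were seen.

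Of 12 matrix ligands and partners, 0 were called by limma and 0 passed an unadjusted p under 0.05. The laminin chain genes LanB2 and LanA, the brightest of the list, had log2 differences of -0.28 (SE 0.21, adjusted p 0.697) and -0.16 (SE 0.60, adjusted p 0.959). LanA was far lower on the replicate 2 arrays, at 11.25 in the mutant and 11.04 in wild type, than on the other arrays, at 12.40 and 12.59 in mutants and 12.87 and 12.80 in wild type. With the block 1 of the 12 ligand genes rose, where 12.6% of all genes rose, and nothing is read from it. This gene was trol, which encodes the proteoglycan perlecan. It gave 9.37, 8.10 and 10.39 on mutant arrays 1, 2 and 3, against 8.79, 6.77 and 9.29 on wild type arrays 1, 2 and 3, so that each mutant array was above the wild type array of its number while the genotypes overlapped. Of 3 regulators measured, 0 were called and 0 passed an unadjusted p under 0.05, with pico, an adaptor of the talin-activating kind, at 0.01 (SE 0.33) and kon, a transmembrane proteoglycan of muscle attachment, at -0.33 (SE 0.69).

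The JNK pathway acts with integrins in dorsal closure. Of 10 measured genes, 0 were called by limma, with 1 risen and 1 fallen at an unadjusted p under 0.05, and the median log2 difference was 0.06. The brightest, the JNK gene bsk and scaf, had differences of 0.07 (SE 0.13) and 0.36 (SE 0.73). With the block kay and scaf rose and hep fell, 2 and 1 of 10, near the 12.6% and 9.21% of all genes. The Fos gene kay gave 9.05, 8.45 and 9.34 on mutant arrays 1, 2 and 3, against 8.09, 8.26 and 8.23 on wild type arrays 1, 2 and 3. Every mutant array was above every wild type array for kay (limma adjusted p 0.194 without the block and 0.0403 with it). For hep every mutant array was below every wild type array. The genotypes did not overlap in 18.9% of all probe sets, and nothing is read from kay or hep.

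Markers of cell types that use integrins moved as follows beside scb and if, and their part in the changes of these 2 genes was not tested. All 9 measured muscle markers had a positive log2 difference, from 0.39 to 0.97 with a median of 0.61, where 5451 of all 11982 genes had one. None was called by limma, with 3 at an unadjusted p under 0.05, and 7 rose with the block, against 12.6% of all genes. Their mean level was 11.05 to 11.97 on mutant arrays and 10.14 to 11.34 on wild type arrays, which overlapped. The change of if, 0.87 (SE 0.07), lay within the range of these markers, and that of scb above it. Only Act87E (0.97, SE 0.47) and bt (0.97, SE 0.95) had a larger change than if, and the other muscle markers had a smaller one.

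Of 7 amnioserosa markers 0 were called by limma and 2 had a positive difference, with 0 risen and 1 fallen at an unadjusted p under 0.05. Their mean level was 7.996 to 8.20 in mutants and 8.04 to 8.40 in wild type. Of 8 haemocyte markers 0 were called and 4 were positive, with 1 and 0 at an unadjusted p under 0.05. Their mean level was 6.63 to 6.87 in mutants and 6.61 to 6.73 in wild type, and 2 of them, eater and He, lay below the highest Tag control on every array. Of 5 tendon cell markers 0 were called and 3 were positive, with 1 and 0 at an unadjusted p under 0.05, and mean levels of 8.57 to 9.31 in mutants and 8.44 to 9.28 in wild type. Of 7 salivary gland markers 0 were called and 1 was positive, with 0 risen and 3 fallen at an unadjusted p under 0.05. Their mean level was 8.45 to 8.66 in mutants and 8.78 to 9.04 in wild type, with no overlap, and no background for such means was computed. The single salivary gland markers were not alike, with log2 differences from -0.97 for sage to 0.12 for ps, and -0.01 for PH4alphaSG2. With the block 1 haemocyte marker rose, 4 salivary gland markers and 1 amnioserosa marker fell, and no tendon cell marker was called, where 12.6% of all genes rose and 9.21% fell.

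**Figure D4:**
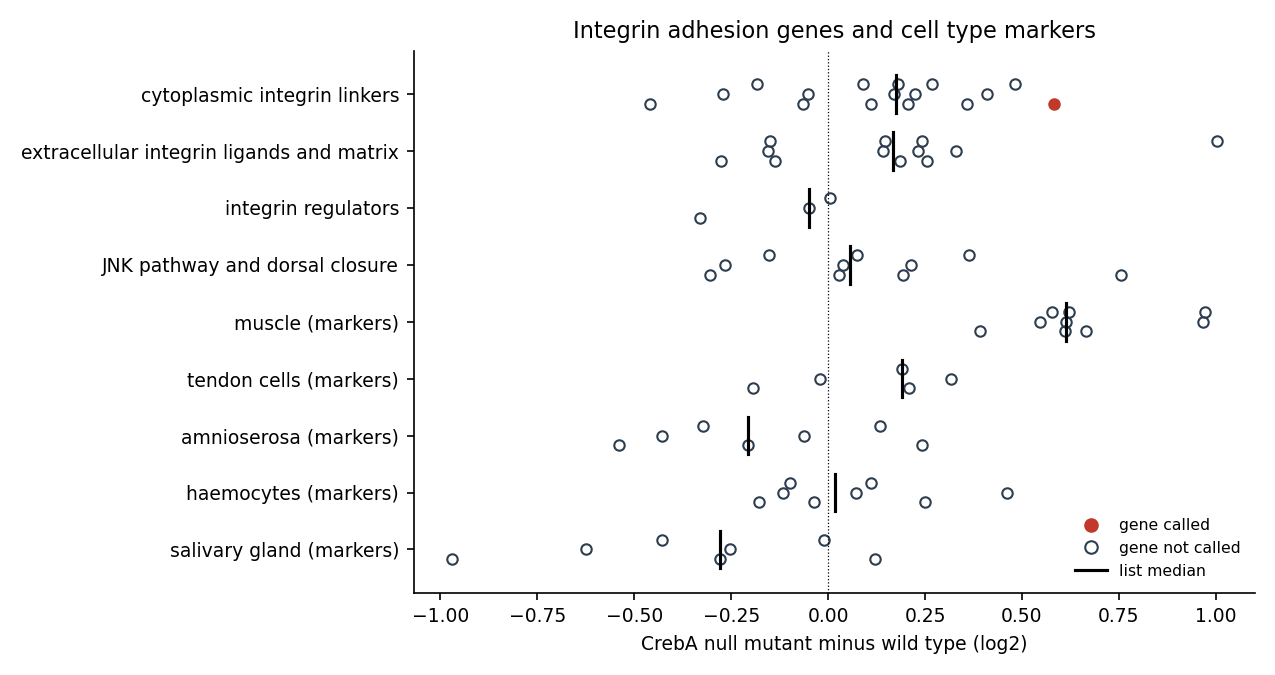
Log2 difference, CrebA null mutant minus wild type, of each measured gene of the integrin adhesion lists, the JNK list and the cell type marker lists, 1 probe set per gene, with the list median as a vertical line. Only Actn among the linkers is filled as called, and all muscle markers lie right of 0.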

How the data were processed

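Total RNA from 6 samples was hybridised to Affymetrix Drosophila Genome 2.0 arrays. The deposited values are RMA log2 expression values per probe set. The submitters' processing notes name RMA and Partek without versions, and the log2 base was inferred from the range of values (2.81 to 14.53). Filters and a genome build are not given in the sources used here. Names came from the platform annotation: 13647 had 1 symbol, 402 several and 4720 none, and 183 array controls were left out. No several-symbol probe set listed an integrin gene.

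Genotypes were compared with limma 3.58.1 (lmFit and eBayes, two-sided, Benjamini-Hochberg over 18769 probe sets) in R 4.3.3, without a filter, called at an adjusted p under 0.05. Outside the integrin genes, a gene was read from 1 probe set, the brightest on average of those that name it alone. The scripts were tested on simulated data. Figures were drawn with matplotlib 3.10.9. Members and lists were chosen with earlier results of these data known. The rule for named genes was every integrin probe set, up to 4 called members of a list or else its 2 brightest, the 5 genes closest to scb in profile, and 3 neighbours on each side of scb. Genes named outside it after their values were seen were rhea, Ilk, stck, parvin, Pax, Zasp52, CAP, by, trol, kay, hep, Act87E, bt, eater, He, sage, ps and PH4alphaSG2. Listed genes without a probe set of their own (1 of 17 linkers, 3 of 6 regulators, 2 of 12 JNK genes, 4 of 13 muscle and 1 of 6 tendon cell markers) were not analysed here.

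The titles number the replicates alike in each genotype. Same-numbered arrays deviated together from their genotype means (r over probe sets of 0.639, 0.852 and 0.563 for numbers 1, 2 and 3), each over the bar of 0.1, so a fit with the replicate number as a block was run beside the main one. Crossed arrays 1 and 3 also correlated (0.566 and 0.371). Deviations within a genotype sum to 0, so a shift shared by the replicate 2 arrays alone tends to make arrays 1 and 3 correlate, crossed or not. Passing the bar thus cannot show that arrays 1 and 3 are paired, and their pairing is not settled. Alternatives were a dim filter, other scalings, variance models, array weights, the block, averaged probe sets and leaving out arrays. The number of arrays limits the precision.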

Additional observations from a re-analysis of the deposited data

How the results depend on the processing

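The change of scb was called and positive in all 14 alternatives run, with log2 differences of 2.62 to 3.02. The change of if was positive in all 14 (0.81 to 0.90) and lost its call in 3 that left out 1 array. The count of called integrin probe sets was 2, between 1 and 2 without 1 array, and 3 with the replicate block, with array weights and with the trended and robust variance model. No other subunit above the Tag controls was called in any alternative, and Itgbn was negative in all 14. The sign of mew and mys, never called, turned in some: mew 1634290_a_at was 0.0354 without both replicate 2 arrays (an alternative chosen after seeing the data) and between -0.21 and 0.0374 without 1 array, mew 1640547_at was -0.0020 with array weights and between -0.0216 and 0.29 without 1 array, and mys was between -0.15 and 0.0561 without 1 array in both probe sets. Over all probe sets, 267 rose and 171 fell, against 1788 and 1342 with the replicate block, 1335 and 1109 with array weights, 581 and 424 without both replicate 2 arrays, and 23 to 159 risen and 15 to 121 fallen without 1 array. Without 1 array the fit has fewer samples, and the cause of the other shifts was not tested. Of the linkers 1 rose and 0 fell, against 4 and 1 with the block, 2 and 1 with array weights, and 0 risen with the trended and robust variance model, with the dim filter and without any 1 array. Of the JNK genes 0 were called, against 2 risen and 1 fallen with the block and with array weights, 1 risen without both replicate 2 arrays, and 0 to 1 risen without 1 array. Of the ligands 1 rose with the block, and 0 were called in the other alternatives. No regulator was called in any alternative. Under the replicate block the integrin call that changed was that of ItgaPS4 alone, which was gained at levels under the highest Tag control. The dim filter removed ItgaPS4 and ItgaPS5, whose signal over background limits what can be said of them.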
